A study of Mus musculus with 18 samples.

Results

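A set of 10 genes of the intestinal crypt stem cell was followed across 18 tumours of Apc Min mice with different doses of Macrod2. They are Lgr5, Olfm4, Ascl2, Smoc2, Sox9, Prom1, Rnf43, Znrf3, Lrig1 and Tnfrsf19, 10 of 24062 genes in the deposited table. The choice was by name as crypt base genes, made with earlier results of these data known. All 10 were detected in every tumour and passed the filter on low counts, which kept 14271 genes. The mice were male C57BL/6, and every one carried ApcMin/+, a truncating germline allele of the Wnt pathway brake Apc, so the controls carry it too. Macrod2, which encodes an enzyme that removes ADP-ribose from proteins, was homozygous null (ApcMin/+/Macrod2-/-, hom, 6 mice), heterozygous (ApcMin/+/Macrod2-/+, het, 6 mice) or wild type (ApcMin/+/Macrod2+/+, wt, 6 mice). Numbered mice in the titles stand for 1 tumour each, and ages are not given in the labels. By source label, het 4 is a tumour of the small intestine and the other 17 are large intestinal, which leaves 6 hom, 5 het and 6 wt tumours for comparison by genotype. No normal intestine is among the samples, and a germline allele leaves the cell type in which Macrod2 was lost unrestricted.

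In the normal crypt, cycling stem cells at the base are maintained by Wnt and R-spondin signals from neighbouring cells. Lgr5 is a receptor for R-spondin, and R-spondin bound to it removes Rnf43 and Znrf3, membrane ubiquitin ligases that take Wnt receptors off the cell surface. Both ligases are themselves Wnt target genes, which makes them a negative feedback. Loss of Apc switches on beta-catenin and TCF/LEF factors without a Wnt ligand, and adenomas of Apc Min mice carry many Wnt target transcripts. Ascl2 and Sox9 are transcription factors of crypt cells, Olfm4 is a secreted glycoprotein, Smoc2 is a secreted matrix protein, Prom1 is a membrane glycoprotein of cell protrusions, Lrig1 is a membrane protein that restrains ErbB receptors, and Tnfrsf19 (Troy) is a Wnt target receptor of the TNF receptor family. In mice, Olfm4 marks stem cells of the small intestine rather than those of the colon.

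The libraries held 13529204 to 20857918 gene counts. Rn45s, the ribosomal RNA precursor, took 27% of counts in wt 3 and at most 0.725% in any other tumour. Macrod2 followed the labels, with 0.158 ± 0.145 CPM, counts scaled to a common library size, in hom (SD, n = 6), 2.20 ± 0.749 CPM in het (n = 5) and 3.74 ± 0.605 CPM in wt tumours (n = 6). Site markers went against some labels. The posterior Hox genes, used as large intestinal markers, were at or near 0 in the 15 tumours other than wt 1, wt 2 and het 4, with Hoxd13, the highest, at up to 0.376 CPM. Wt 2 was above all 15 for Hoxb13 (1.04 CPM), Hoxd13 (0.415) and Hoxd10 (0.138), while het 4 and wt 1 were at 0 for these 3. The levels in wt 2 also lie near 0, so few reads set them. Fabp6, the ileal bile acid binding protein, had a median of 654 CPM in these 15, against 2.06 CPM in wt 1, 1.73 in wt 2 and 2.30 in het 4. Lct, the small intestinal lactase, was at 925 CPM in wt 1, 1664 in wt 2 and 821 in het 4, against at most 45.6 CPM in the 15, and Gata4, a factor of the upper small intestine, at 171, 179 and 166 CPM against at most 47.3. The libraries labelled wt 1 and wt 2 of the large intestine were thus close to het 4 in Fabp6, Lct and Gata4, and results are also given without them.

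The genes are spread over the genome. In GENCODE annotation of GRCm38, the mm10 assembly, Lgr5 lies on chromosome 10 from 115450311 to 115587780 (- strand), Olfm4 on chromosome 14 from 79984081 to 80023139 (+), Ascl2 on chromosome 7 from 142966829 to 142969264 (-), Smoc2 on chromosome 17 from 14279506 to 14404790 (+) and Sox9 on chromosome 11 from 112782224 to 112787760 (+). Prom1 lies on chromosome 5 from 43993620 to 44102032 (-), Rnf43 on chromosome 11 from 87662722 to 87735539 (+), Znrf3 on chromosome 11 from 5276324 to 5444847 (-), Lrig1 on chromosome 6 from 94604529 to 94700158 (-) and Tnfrsf19 on chromosome 14 from 60963875 to 61046490 (-). Exons of Prom1 share 424 bases with the antisense gene Gm16401, those of Lrig1 share 144 bases with Slc25a26 on the other strand, and those of Olfm4 share 153 bases with the lincRNA Gm6999 on the same strand. The strand setting of the counting is not given in the sources used here. Counts of these 3 genes are therefore uncertain to that extent.

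Promoters of the members were read from RefSeq, build GRCm38.p6, as the 250 bases before an annotated start. Entries were found for 6 of the 10 members, Olfm4, Ascl2, Prom1, Rnf43, Lrig1 and Tnfrsf19, with 9 starts in all. Each was searched for the TCF/LEF motif in 4 spellings on both strands, which are AACAAAG as the first, ATCAAAG as the second, TACAAAG as the third and TTCAAAG as the last, and for CAGCTG, an E-box read by basic helix-loop-helix factors, the family of Ascl2. CAGCTG reads the same on both strands and overlaps none of the TCF/LEF spellings. Of 32851 promoters in the table, 14.8% held a TCF/LEF match and 13.0% held CAGCTG. Among the members both motifs were found in 1 promoter, that of the inner start of Tnfrsf19, and in none of the other 8 windows. It is shown on the - strand at chr14:61037988-61038237, with both matches in capitals, the TCF/LEF match beginning 202 bases and CAGCTG 10 bases before the start. The promoters of Prom1 (chr5:44101737-44101986, - strand) and Lrig1 (chr6:94700146-94700395, - strand) are shown because these genes moved together across tumours, as described below, and they hold neither motif.
Tnfrsf19: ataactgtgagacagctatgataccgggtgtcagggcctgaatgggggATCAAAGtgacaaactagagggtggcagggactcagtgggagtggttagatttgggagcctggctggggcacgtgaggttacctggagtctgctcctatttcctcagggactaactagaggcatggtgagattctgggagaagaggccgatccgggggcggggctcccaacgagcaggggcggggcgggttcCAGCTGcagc
Prom1: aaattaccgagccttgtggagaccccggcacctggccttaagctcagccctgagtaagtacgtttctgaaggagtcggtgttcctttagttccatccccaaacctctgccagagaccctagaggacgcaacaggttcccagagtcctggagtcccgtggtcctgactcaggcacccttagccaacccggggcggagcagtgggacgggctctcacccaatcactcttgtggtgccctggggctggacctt
Lrig1: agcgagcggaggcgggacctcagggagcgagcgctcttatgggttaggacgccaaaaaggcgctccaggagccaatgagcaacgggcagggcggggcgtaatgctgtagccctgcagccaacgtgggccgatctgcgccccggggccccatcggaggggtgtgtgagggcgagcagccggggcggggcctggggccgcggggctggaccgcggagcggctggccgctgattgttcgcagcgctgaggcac
The Lrig1 window was 71.6% G and C, a share exceeded by 6.87% of all promoters in the table, while Prom1 and this Tnfrsf19 window were both at 59.2%, against a median of 52.4%. A match is a run of letters and not a measured binding site.

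Per length, Prom1 was the most abundant of the members in all 17 large intestinal tumours. On the deposited RPKM scale, in which counts are divided by transcript length and scaled library total, its median level was 219.6, against 57.5 for Smoc2, 53.3 for Rnf43, 42.0 for Sox9, 39.8 for Tnfrsf19, 37.8 for Lgr5, 20.9 for Lrig1, 17.6 for Olfm4, 13.0 for Ascl2 and 11.1 for Znrf3. Several neighbours in this order changed places between tumours. Smoc2 was above Rnf43 in 9 of the 17, Sox9 above Tnfrsf19 in 11, Tnfrsf19 above Lgr5 in 10, Olfm4 above Ascl2 in 9 and Ascl2 above Znrf3 in 11. Lgr5 was above Lrig1 in 15 of the 17 tumours, and Rnf43 above Sox9 in 14. Olfm4 ran from 3rd to 10th place, the widest span of any member. In het 4 the order by RPKM matched the order of medians but for Rnf43 and Sox9, which exchanged the third and the fourth place.

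**Figure D1:**
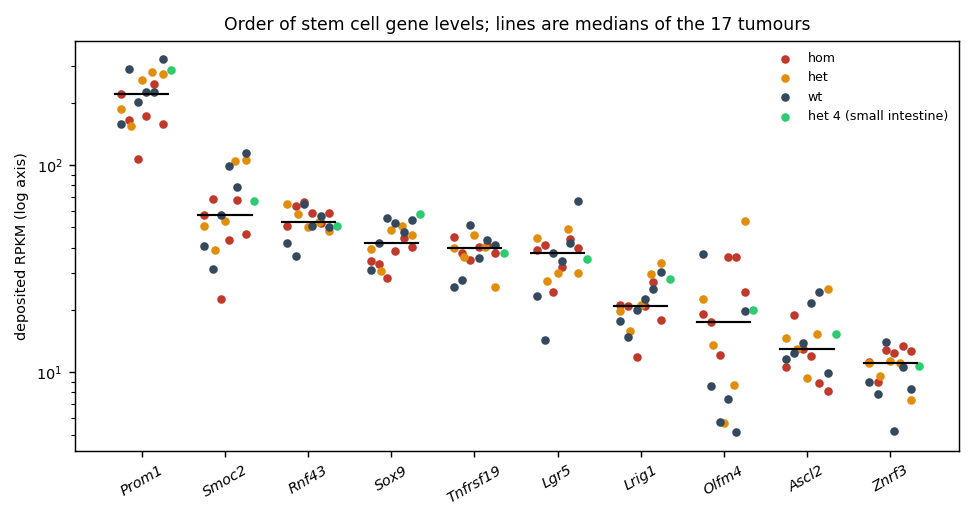
Deposited RPKM (log axis) of the 10 stem cell genes in 6 hom, 5 het and 6 wt tumours labelled large intestinal and het 4. Each point is 1 tumour and each line the median of the 17, and Prom1 is above every other member while Olfm4 spans the most.

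The members differed in how much they varied between tumours of the same genotype. Olfm4 had the largest spread, an SD of log2 CPM of 1.01, and 2.16% of 7936 genes at a like level or above had a larger one. Smoc2 followed at 0.66 and Lgr5 at 0.53, while Rnf43, at 0.22, lay below the median gene (0.26). Without wt 1 and wt 2 the SD of Lgr5 was 0.37 and that of Olfm4 0.93. In single tumours Olfm4 ran from 8.47 CPM in wt 5 to 88.4 CPM in het 6, and Rnf43 from 158 CPM in wt 2 to 287 CPM in hom 3. These counts were well above the floor of detection, the lowest count of any member being 103 reads, for Olfm4.

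No member passed the test in any comparison of genotypes. In hom against wt, edgeR's quasi-likelihood test called 0 of 10 members at a Benjamini-Hochberg adjusted p under 0.05, beside 0.00701% of all tested genes, which is Macrod2 alone. At an unadjusted p under 0.05, 1 member, Sox9, was lower and 0 were higher, where 10.6% of all tested genes were lower and 5.35% higher. A share of 1 in 10 is near that background. Log2 fold changes ran from -0.48 (Smoc2) to 0.75 (Olfm4) with a median of -0.08, beside -0.03 over all tested genes, and 4 of the 10 were above 0, beside 45.7% of all. With the fit made without wt 1 and wt 2, the median of the members was -0.30, beside 0.006 over all tested genes, and 3 of the 10 were above 0, beside 50.6% of all. The members at an unadjusted p under 0.05 then numbered 3, beside 24.6% of all genes. DESeq2 and limma-voom called 0 members as well, beside 22 and 1 of the 14271 tested genes after adjustment. They had 1 and 3 members at an unadjusted p under 0.05, beside 17% and 15.7% of all tested genes. The unadjusted count was 0 without wt 4 and without wt 6, 2 without het 6, hom 1, hom 5, wt 3 or wt 5, and 3 without hom 2 or wt 1, so single tumours decided it. The share of all tested genes at this level ran over the same fits from 9.4% without wt 4 to 20.4% without wt 3 or hom 2.

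Lgr5, the R-spondin receptor, was at 115, 186 and 207 CPM in hom tumours (lowest, median and highest, n = 6), at 210.0, 130.5, 142, 232 and 142 CPM in het 1, 2, 3, 5 and 6, and at 67.2, 170.2 and 315 CPM in wt tumours (n = 6). The wt tumours reached both below and above all others, with wt 2 lowest and wt 6 highest. Its log2 fold change came to -0.01 in hom against wt (95% interval -0.58 to 0.56, edgeR adjusted p = 0.989), -0.02 in het against wt (-0.62 to 0.58, adjusted p = 0.999) and 0.01 in hom against het (-0.59 to 0.61, adjusted p = 1). Without wt 1 and wt 2 the value was -0.30 for hom (adjusted p = 0.375) and -0.32 for het, each set against the other wt tumours. Shifts of less than about 0.6 on the log2 scale therefore lie within the interval.

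The feedback ligases of the same module had log2 fold changes above 0 in hom against wt, and neither passed the test. Rnf43 was at 218, 254 and 287 CPM in hom tumours (lowest, median and highest), at 281, 252, 216, 229.8 and 207 CPM in het 1, 2, 3, 5 and 6, and at 158, 217 and 279 CPM in wt tumours. Its log2 fold change in hom against wt was 0.20 (SE 0.12, adjusted p = 0.418), and 0.07 without wt 1 and wt 2, the 2 tumours with its lowest levels. Znrf3 was at 68.8, 96.6 and 103 CPM in hom tumours, at 85.4, 73.3, 86.7, 85.2 and 56.2 CPM in het 1, 2, 3, 5 and 6, and at 39.8, 66.4 and 107 CPM in wt tumours. 5 of the 6 hom tumours were above 5 of the 6 wt tumours, and wt 3 was above all, so the groups overlapped. The log2 fold change of Znrf3 was 0.35 in hom against wt (SE 0.18, adjusted p = 0.346), 0.12 in het against wt and 0.24 in hom against het. Tnfrsf19 was at 166, 186 and 215 CPM in hom, 190.3, 173, 221, 192 and 124 CPM in the same 5 het tumours, and 123, 183 and 244 CPM in wt, with log2 fold changes of 0.05 (hom against wt) and -0.01 (het against wt), or -0.12 and -0.18 without wt 1 and wt 2.

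Both transcription factors had log2 fold changes below 0 in hom against wt, and neither passed the test. Sox9 was at 118, 152 and 184 CPM in hom tumours (lowest, median and highest), at 163, 127, 202, 211 and 190.3 CPM in het 1, 2, 3, 5 and 6, and at 129.7, 207 and 232 CPM in wt tumours. 4 of the wt tumours, wt 3 to wt 6, were above every hom tumour, and wt 1 and wt 2 were within the hom range. Its log2 fold change came to -0.39 in hom against wt (SE 0.15, edgeR adjusted p = 0.271), -0.15 in het against wt and -0.24 in hom against het. Without wt 1 and wt 2 it was -0.52 (adjusted p = 0.122). Ascl2 was at 13.1, 18.2 and 30.3 CPM in hom tumours, at 23.7, 21.0, 15.2, 24.8 and 40.6 CPM in het 1, 2, 3, 5 and 6, and at 16.0, 21.2 and 39.4 CPM in wt tumours. The 3 groups of Ascl2 overlapped, with log2 fold changes of -0.43 for hom against wt (SE 0.26, adjusted p = 0.416) and -0.04 for het against wt, or -0.56 and -0.18 without wt 1 and wt 2.

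Among the membrane and matrix proteins, Prom1 and Smoc2 had lower medians in hom than in wt tumours, and the groups overlapped. Prom1 was at 439, 692 and 1005 CPM in hom tumours (lowest, median and highest), at 764, 635, 1053, 1159 and 1134 CPM in het 1, 2, 3, 5 and 6, and at 649, 926 and 1329 CPM in wt tumours. Set against wt, hom tumours had a log2 fold change of -0.44 (SE 0.21, adjusted p = 0.316). Smoc2 was at 64.0, 147 and 195 CPM in hom tumours, at 143, 109.9, 152, 297 and 298 CPM in the same het tumours, and at 89.6, 192 and 323 CPM in wt tumours, a log2 fold change for hom against wt of -0.48 (SE 0.34, adjusted p = 0.471). This value of Smoc2 ran from -0.77 without wt 1 and wt 2 (adjusted p = 0.170) to -0.27 over the alternatives run, and het against wt was -0.31 without these tumours. Smoc2 is also expressed by stromal cells, and the 8 fibroblast genes summed to 366 to 842 CPM in hom, 280 to 562 in het and 249.4 to 476 CPM in wt tumours, with 0 of the 8 at 0. Over the 15 tumours other than wt 1, wt 2 and het 4, r of Smoc2 to the mean of these 8 genes was -0.27 (rho -0.38, adjusted permutation p = 0.574). To the mean of 8 smooth muscle and pericyte genes it was 0.59 (rho 0.46, adjusted permutation p = 0.134), and 0.21 without hom 3 and wt 6. Lrig1 was at 59.0, 104 and 136 CPM in hom tumours, 98.2, 78.6, 105, 148 and 167 CPM in het 1, 2, 3, 5 and 6, and 73.3, 106 and 151 CPM in wt tumours, a log2 fold change for hom against wt of -0.14 (SE 0.21, adjusted p = 0.739), or -0.30 without wt 1 and wt 2 (adjusted p = 0.396). In bulk tumour RNA, fewer cells that express a gene and less RNA per cell cannot be told apart.

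Olfm4 had the largest fold change of the members in both comparisons with wt, and the largest error. It was at 19.98, 35.7 and 59.3 CPM in hom tumours, at 37.0, 22.3, 9.39, 14.2 and 88.4 CPM in het 1, 2, 3, 5 and 6, and at 8.47, 13.2 and 61.3 CPM in wt tumours. 4 of the 6 wt tumours were below every hom tumour, whereas wt 1 was above all of them. Its log2 fold change came to 0.75 in hom against wt (SE 0.57, 95% interval -0.45 to 1.95, edgeR adjusted p = 0.495). Without wt 1 it was 1.35 (adjusted p = 0.218), and without wt 1 and wt 2 it was 1.34 (adjusted p = 0.180). Het tumours set against wt had 0.52, and 1.11 without wt 1 and wt 2 (adjusted p = 0.619).

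**Figure D2:**
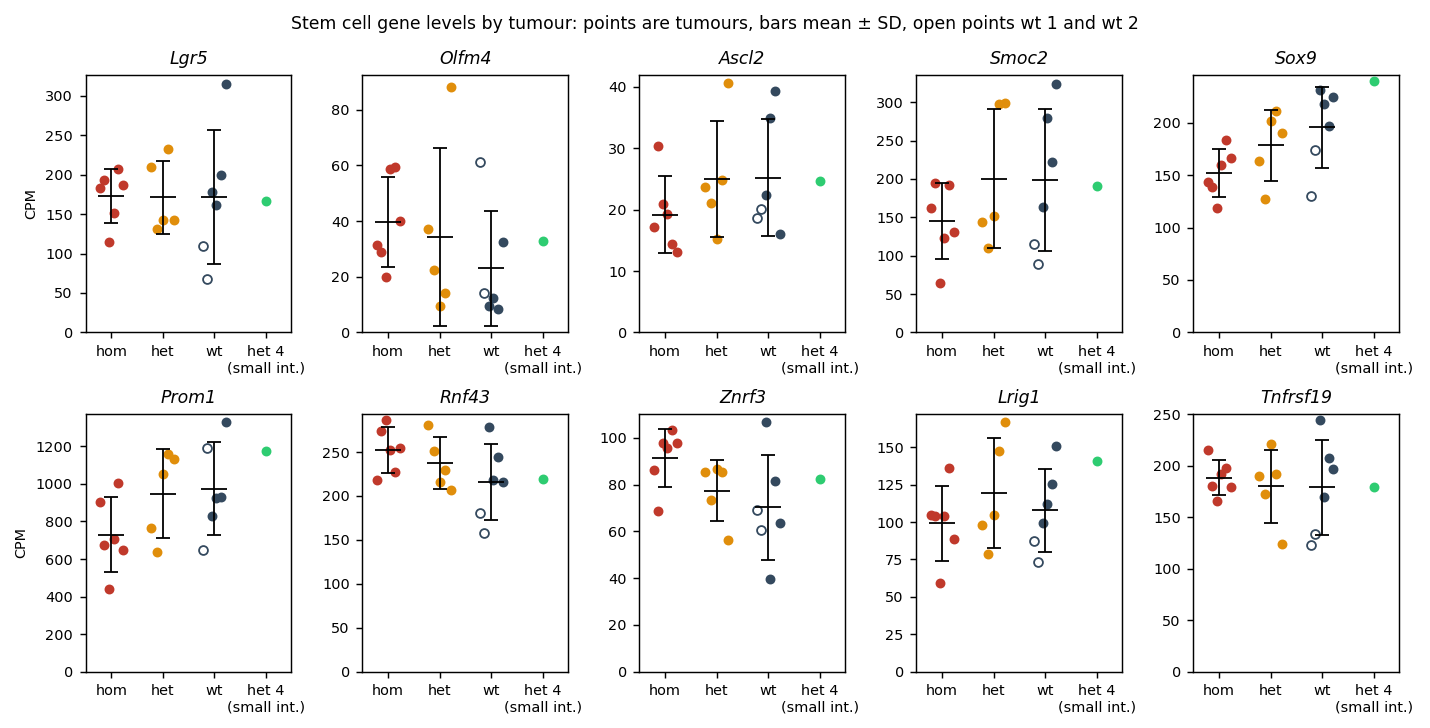
CPM of each stem cell gene in hom, het and wt tumours labelled large intestinal and in het 4 of the small intestine. Each point is 1 tumour, with bars for mean and SD, and wt 1 and wt 2 are open points. The groups overlap for all 10 genes, and for Lgr5 and Rnf43 the 2 open points are the lowest.

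In het against wt no member passed either threshold. edgeR, DESeq2 and limma-voom each called 0 of 10 members, with 0 at an unadjusted p under 0.05, beside 3.49% of all tested genes with DESeq2 and 2.38% with limma-voom. After adjustment all 3 tools called 0 of all tested genes, and edgeR had 1.18% higher and 1.67% lower at an unadjusted p under 0.05. The log2 fold changes of members ran from -0.15 (Sox9) to 0.52 (Olfm4), and 8 of the 10 lay within -0.13 and 0.13. When wt 1 and wt 2 were left out, the median of the members was -0.13, beside 0.001 over all tested genes. Then 2 of the 10 were above 0, beside 50.2% of all. In hom against het the adjusted count was 0 with all 3 tools, beside 0.00701% of all tested genes, and 0 members were past an unadjusted p of 0.05, beside 0.974% higher and 1.03% lower over all genes. Leaving out het 2 or hom 5 gave 1 member at an unadjusted p under 0.05, beside 2.72% and 1.79% of all tested genes. Values in hom against het ran from -0.47 (Smoc2) to 0.24 (Znrf3). The hom and het comparisons with wt share the 6 wt tumours. No member had groups free of overlap in any of the 3 comparisons, as 0.680%, 0.140% and 0.189% of all tested genes did in hom against wt, het against wt and hom against het.

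**Figure D3:**
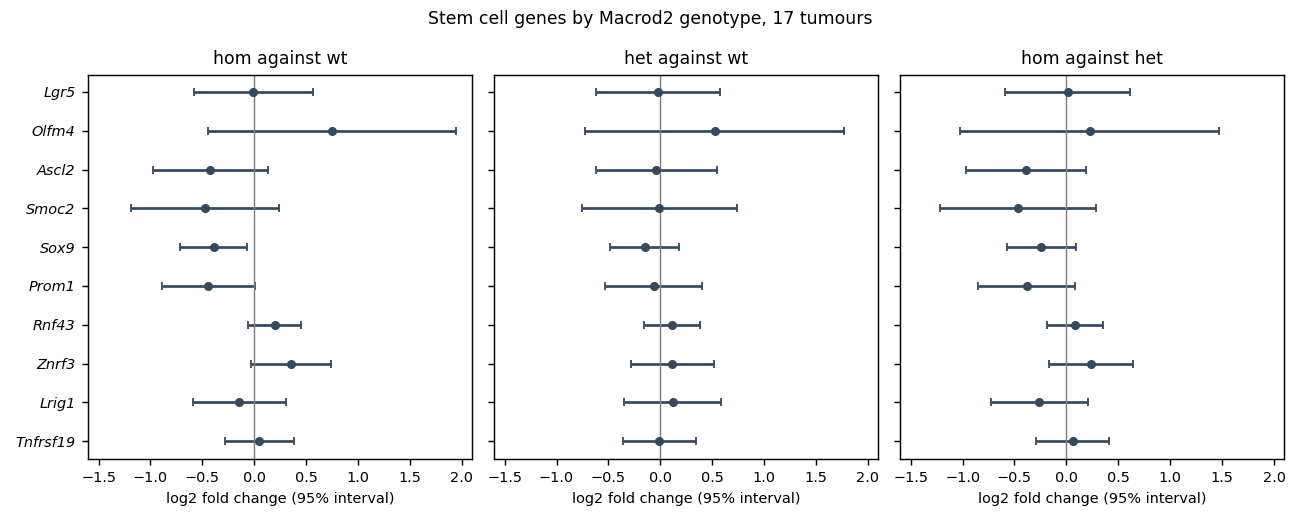
Log2 fold changes with 95% intervals (edgeR, 17 tumours) of the 10 stem cell genes in hom against wt, het against wt and hom against het. In hom against wt the interval of Sox9, -0.71 to -0.08, leaves out 0, and those of the other 9 include it.

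Other genes of the crypt and of the Wnt pathway were set beside the members from fixed lists. Of 22 tested Wnt target and feedback genes, 18 had log2 fold changes above 0 in hom against wt, beside 45.7% of all genes. Their median was 0.13 beside -0.03 over all genes. In het against wt 18 were above 0, beside 43.2% of all genes, with a median of 0.07. Without wt 1 and wt 2, a check of the lists chosen after seeing the data, these counts were 13 and 13 of 22. Beside them 50.6% and 50.2% of all genes were above 0. The medians were 0.073 and 0.036, beside 0.006 and 0.001 over all genes. The summed level of the 23 listed genes was 5715 to 7031 CPM in hom, 5349 to 6854 in het and 5079 to 6701 CPM in wt tumours, and wt 1 (5079) and wt 2 (5228) were the lowest of the 17. None passed an adjusted p of 0.05 with edgeR. At an unadjusted p under 0.05 in hom against wt there were 2, both lower, beside 10.6% of all tested genes lower. These were Ephb3 (-0.45), an Eph receptor that positions cells in the crypt, and the cyclin gene Ccnd1 (-0.40). The higher ones with the smallest p were Sp5 (0.47), a transcription factor, and Axin2 (0.44), a scaffold of the complex that degrades beta-catenin. When libraries were scaled by totals only, the median of all genes moved to 0.11 in both comparisons with wt tumours, which bears on counts of genes above 0. Of the 6 genes of the R-spondin module, the ligands and the sister receptors Lgr4 and Lgr6, 4 were tested, and their values ran from -0.40 (Lgr6) to 0.87 (Rspo1).

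Of 22 tested other crypt stem cell genes, 12 were above 0 and 10 below in hom against wt, beside 45.7% of all tested genes above 0. Their median was 0.02, and 0 were past adjustment. Without wt 1 and wt 2, 9 were above 0, beside 50.6% of all. Aqp4, a water channel, had the smallest p of these, with a log2 fold change of 1.30 (edgeR adjusted p = 0.258), and Kcne3, a potassium channel subunit, was at -0.57 (adjusted p = 0.285). The 9 reserve and regenerative stem cell genes, such as Bmi1 (0.17) and Hopx (-0.14), ran from -0.29 to 0.19 with 0 at an unadjusted p under 0.05. All 10 cell cycle genes were below 0 in hom against wt, with a median of -0.45, where 45.7% of all tested genes were above 0. Of the 10, 0 passed adjustment. At an unadjusted p under 0.05 there was 1, Aurka (-0.60), beside 10.6% of all tested genes lower. Their sum was 636 to 1520 CPM in hom, 826 to 2106 in het and 1173 to 2299 CPM in wt tumours. All 8 fibroblast genes were above 0, beside 45.7% of all tested genes, with a median of 0.58. Of the 8, 4 were at an unadjusted p under 0.05, beside 5.35% of all tested genes higher, and 0 passed adjustment. Leaving out wt 1 and wt 2, 0 of the 10 cell cycle genes (median -0.56) were above 0, beside 50.6% of all tested genes. Of the 8 fibroblast genes, 7 were above 0 in that fit (median 0.56).

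Wt 1 and wt 2, close to het 4 in Fabp6, Lct and Gata4, were low for several members. Each was below all 15 others labelled large intestinal for Lgr5, at 109.8 and 67.2 CPM against 115 to 315. The same held for Rnf43, at 181 and 158 CPM against 207 to 287. Over all tested genes 3.59% had both tumours below all 15. Tnfrsf19 was below the 15 in wt 1 (123 CPM against 124 to 244) and above het 6 alone in wt 2 (134 CPM). Both tumours were below the median of the 15 for 8 of the members, all but Olfm4 and Prom1, as for 38.5% of all tested genes. Het 4 did not share these low levels. It had 167 CPM of Lgr5 and 219 CPM of Rnf43, both within the range of the 15, and of the 10 members only Sox9, at 239.9 CPM against 118 to 232, was outside it. No label sets wt 1 and wt 2 apart, so site cannot be told apart from other differences between these mice, and no test was made.

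Across tumours, 4 of the members moved together. Among the 15 tumours other than wt 1, wt 2 and het 4, Pearson's r of log2 CPM was computed for all 45 pairs. Two-sided permutation tests used 100000 resamples with adjustment over the pairs, and 10 pairs passed 0.05. The share over pairs of all tested genes was not computed. Whether members are more alike than other genes was therefore not tested. Smoc2 and Lrig1 had r = 0.92 (Spearman's rho 0.90, permutation p = 1e-05, the smallest that the resamples can give, adjusted p = 3e-04). Prom1 and Lrig1 had r = 0.92 (rho 0.94, adjusted permutation p = 3e-04), and Smoc2 and Prom1 r = 0.88 (rho 0.83, adjusted permutation p = 3e-04). Without the 2 tumours farthest from the median of the first gene, hom 3 and wt 6 in each case, these r were 0.85, 0.84 and 0.75. Sox9 joined them, with r = 0.80 to Prom1 (rho 0.74, permutation p adjusted 0.00369), 0.75 to Smoc2 (rho 0.69, 0.00863) and 0.71 to Lrig1 (rho 0.61, 0.0174). Without 2 tumours these were 0.65, 0.58 and 0.43.

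Lgr5 passed with 1 gene of this group. Among the 15, its r to Smoc2 was 0.64 (rho 0.55, adjusted permutation p = 0.0496), and without hom 3 and wt 6, the lowest and highest Lgr5 levels among the 15, it was 0.30, so the relation rests on those tumours. Over all 17 tumours, with wt 1 and wt 2 lowest for Lgr5, its r was 0.69 to Smoc2 (rho 0.68, adjusted permutation p = 0.0154). It was 0.66 to Lrig1 (rho 0.61, 0.0235) and 0.61 to Tnfrsf19 (rho 0.52, 0.0489). Without wt 2 and wt 6 these were 0.58, 0.55 and 0.56. By rank over the 17, Lgr5 with Tnfrsf19 did not pass (adjusted permutation p = 0.128). Among the 15, r of Lgr5 was 0.60 to Lrig1 (adjusted permutation p = 0.071) and 0.35 to Tnfrsf19 (0.398). The ligase gene Rnf43 ran opposite to 3 of the group among the 15 tumours. Its r was -0.80 to Prom1 (rho -0.79, adjusted permutation p = 0.00369), -0.70 to Lrig1 (rho -0.81, 0.0174) and -0.66 to Smoc2 (rho -0.63, 0.0317), and without 2 tumours each -0.73, -0.53 and -0.51. Over all 17 tumours none of these passed by Pearson's r. It was -0.56 to Prom1 (adjusted permutation p = 0.0754), -0.12 to Lrig1 (0.801) and -0.076 to Smoc2 (0.848). By rank the relation to Prom1 passed over the 17 (rho -0.64, adjusted permutation p = 0.0453), and those to Lrig1 and Smoc2 did not. The relations to Lrig1 and Smoc2 thus rest on leaving out wt 1 and wt 2, whose Rnf43 was lowest. Rnf43 and Znrf3, which share a function, had r = 0.48 (rho 0.49, adjusted permutation p = 0.160). Ascl2, Olfm4, Znrf3 and Tnfrsf19 entered no pair past the threshold among the 15, the nearest being Ascl2 with Znrf3 at -0.58 (rho -0.60, adjusted permutation p = 0.0714).

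Over all 17 tumours 9 pairs passed by Pearson's r, all positive. By rank, 7 of the 45 pairs passed among the 15 tumours. Sox9 with Lrig1, Rnf43 with Smoc2 and Lgr5 with Smoc2 passed there by Pearson's r alone. Their adjusted permutation p by rank was 0.0888, 0.0805 and 0.133. With genotype means subtracted, an alternative chosen after seeing the data, 9 pairs passed. Smoc2 with Sox9 and Lgr5 with Smoc2 were then lost (adjusted permutation p = 0.0538 for each), and Znrf3 with Tnfrsf19 was gained (r = 0.71, adjusted permutation p = 0.0279). Hom 3 was the lowest of the 17 tumours for Smoc2, Lrig1, Prom1 and Sox9, and it also had the lowest sum of the 10 cell cycle genes, 636 CPM. Without hom 3 as well, also chosen after seeing the data, 5 pairs passed, which are Smoc2 with Lrig1 (r = 0.87), Prom1 with Lrig1 (0.87), Smoc2 with Prom1 (0.80), Sox9 with Prom1 (0.72) and Prom1 with Rnf43 (-0.75).

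**Figure D4:**
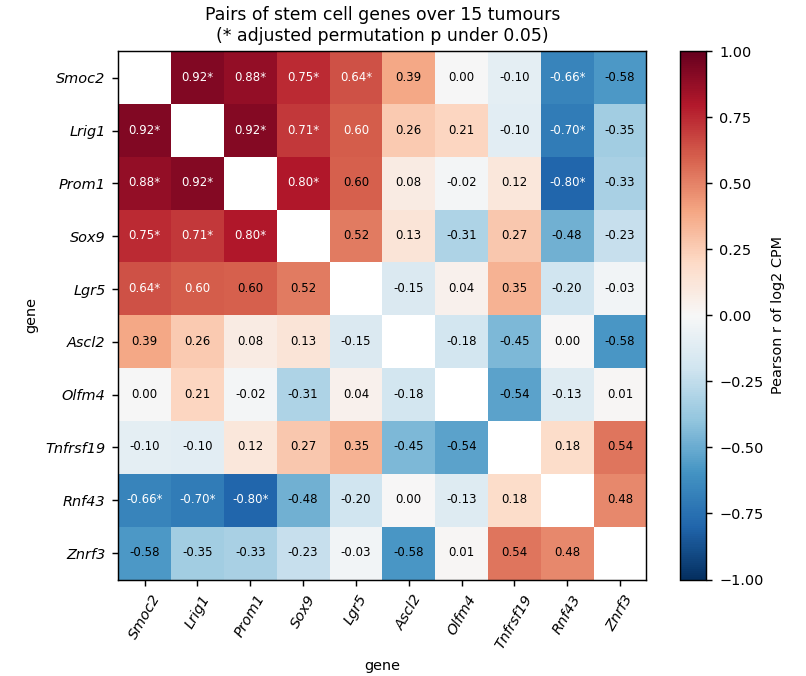
Pearson r of log2 CPM for the 45 pairs of stem cell genes over 15 tumours labelled large intestinal (wt 1 and wt 2 left out). A star marks an adjusted permutation p under 0.05. Smoc2, Lrig1, Prom1 and Sox9 are positive to each other, and Rnf43 is negative to Smoc2, Lrig1 and Prom1.

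**Figure D5:**
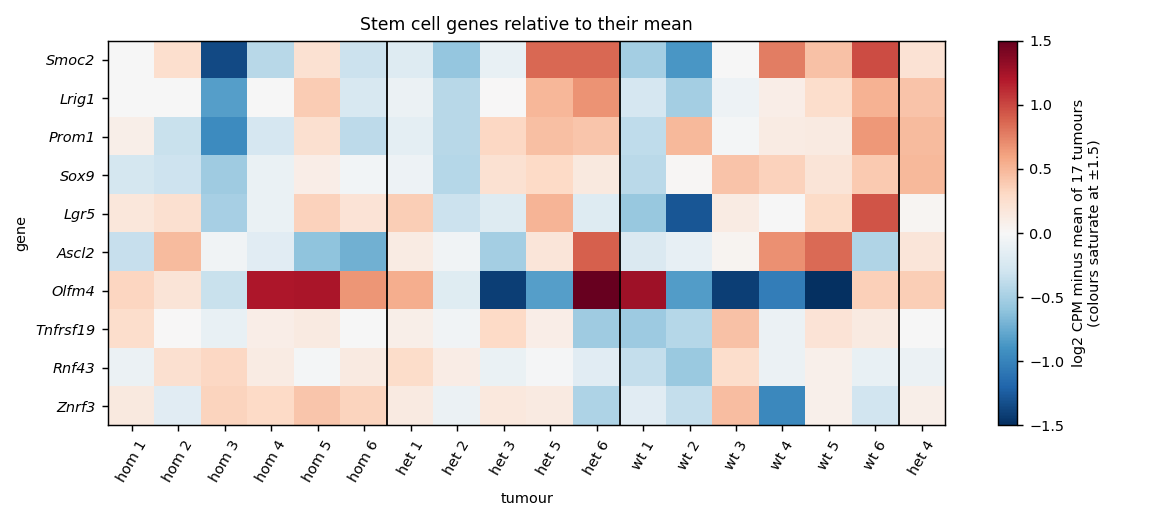
Log2 CPM of each stem cell gene (rows) in each tumour (columns, hom, het, wt, then het 4) minus the gene's mean. That mean is over the 17 tumours labelled large intestinal, and colours saturate at 1.5 in either direction. Hom 3 is low and wt 6, het 5 and het 6 are high for Smoc2, Lrig1 and Prom1, and Olfm4 has the deepest colours.

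The members were also set against the mean log2 CPM of 17 gene lists over the 15 tumours, which made 170 relations. Of these, 11 passed an adjusted permutation p of 0.05 by Pearson's r and 3 by Spearman's rho. Only Znrf3 with the Wnt target and feedback genes passed by both. Znrf3 followed the 22 Wnt target and feedback genes, with r = 0.91 (rho 0.84, adjusted permutation p = 0.0017 and 0.0306 by rank) and 0.82 without het 6 and wt 4. Znrf3 also had r = 0.84 to the colonocyte genes (rho 0.67, adjusted permutation p = 0.0306), 0.76 to the small intestinal site genes (rho 0.68, 0.0374) and -0.71 to the reserve and regenerative genes (rho -0.67, 0.0437), which were 0.51, 0.55 and -0.48 without het 6 and wt 4. Tnfrsf19 had r = 0.74 to the Wnt target and feedback genes (rho 0.54, adjusted permutation p = 0.0374), and 0.43 without het 6 and wt 3. Lgr5 had r = 0.21 to this list (rho 0.24, adjusted permutation p = 0.671). Smoc2, Lrig1 and Prom1 rose with the 10 cell cycle genes by Pearson's r, at 0.81, 0.78 and 0.71 (rho 0.75, 0.77 and 0.67). The adjusted permutation p was 0.0213, 0.0306 and 0.0464, and by rank 0.0588, 0.0548 and 0.121. Without 2 tumours each, r was 0.76, 0.55 and 0.62. Ascl2 ran opposite to 6 immune genes (r = -0.77, rho -0.59, adjusted permutation p = 0.0306, -0.63 without het 6 and wt 5) and to the colonocyte genes (r = -0.71, rho -0.66, adjusted permutation p = 0.0374, -0.62 without them). Olfm4 rose with 7 goblet and deep crypt secretory genes (r = 0.73, rho 0.59, adjusted permutation p = 0.0329, 0.66 without het 6 and wt 5). Smoc2 ran opposite to the 8 small intestinal site genes by rank (rho -0.80, adjusted permutation p = 0.0397; r = -0.70, adjusted 0.0579) and to the colonocyte genes (rho -0.80, adjusted permutation p = 0.0397; r = -0.66, adjusted 0.0855), and the summed level of those 8 ran from 312 CPM in wt 4 to 17660 CPM in hom 6. The 10 listed colonocyte genes were not particular to the large intestine here. They summed to 3622 CPM in wt 1, 4280 in wt 2 and 2696 in het 4, beside a median of 1880 CPM in the 15. Relative to the 17-tumour mean, the colonocyte and small intestinal lists were at -2.98 and -3.88 in wt 4 and at 1.04 and 2.03 in hom 6. Whether relations to these lists are separate was not tested. The part of cell makeup and site in the relations was not tested either.

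The 3 genes most alike to each member were taken by Pearson's r of log2 CPM over the same 15 tumours, out of 12536 named genes, as a description. Olfm4 was most like Atoh1 (r = 0.93), the transcription factor of the secretory lineage, then Mcf2l (0.91) and Car8 (0.87). Prom1 was most like Dclk1 (0.96), a kinase that marks tuft cells, then Cnp (0.94) and Galnt4 (0.94). To the mean of the 6 tuft cell genes, Dclk1 among them, r of Prom1 was 0.48 (rho 0.49, adjusted permutation p = 0.310). Galnt4, a transferase that begins O-linked glycans, also led for Lrig1 (0.93), before Tbc1d4 (0.93) and Fam57a (0.90). Smoc2 was most like the receptor phosphatase gene Ptpro (0.97), then Creg1 (0.94) and the claudin gene Cldn18 (0.94). Znrf3 was most like Nav3 (0.96), Zhx1 (0.94) and Zfp799 (0.94), Rnf43 like Phf21a (0.93), the histone deacetylase gene Hdac5 (0.90) and Cyp27a1 (0.90), and Ascl2 like Cep44 (0.93), Tpgs2 (0.91) and Actr8 (0.91). Likeness was weaker for Lgr5, led by Ncald (0.89), Slc37a3 (0.86) and Trf (0.85), the transferrin gene, for Sox9, led by Gaa (0.91), the lysosomal glucosidase, Prelp (0.87) and Pdia4 (0.87), and for Tnfrsf19, led by Celsr1 (0.84), Vsig10 (0.83) and Tcf4 (0.81). Over all 17 tumours the r of Lgr5 was 0.40 to Trf and 0.76 to Ncald, and that of Rnf43 to Cyp27a1 was 0.50. Smoc2 had 0.66 to Creg1 and 0.645 to Cldn18, Lrig1 0.73 to Galnt4 and Ascl2 0.77 to Cep44. Others held or rose, such as Olfm4 to Atoh1 (0.94) and Tnfrsf19 to Celsr1 (0.91). These highest values out of many genes share tumours and depth, and no p was computed for them.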

How the data were processed

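RNA of 18 tumours was sequenced. Per the labels' protocols, total RNA was extracted from resected tumours and made into libraries with a TruSeq kit for stranded total RNA, although polyA RNA is given as the molecule. The deposited table gives whole-number read counts per gene and the authors' RPKM. Trimmomatic, TopHat, featureCounts (Subread 1.4.5-p1) and mm10 are named per the submitters' processing notes. The deposited RPKM equalled counts per gene length and TMM-scaled library total.

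Groups came from genotype and source labels. Each library is 1 numbered mouse; no 2 libraries agreed within sampling noise (lowest chi-square per degree of freedom 20.3). edgeR 4.0.16 (R 4.3.3) fitted a robust quasi-likelihood model with TMM factors to the counts of 17 large intestinal tumours, with filterByExpr (14271 genes) and Benjamini-Hochberg adjustment over all of them. Levels are CPM scaled by TMM over 18 libraries, and log2 CPM has a prior count of 2. Spread is the SD within genotypes. Correlations used 100000 permutations. DESeq2 1.42.0, limma-voom 3.58.1, other scalings and filters, and left-out tumours were the alternatives. Scripts were tested on simulated data. The members, the gene lists and the naming rule (all members, the list genes with the smallest p, the 3 most alike genes of each member) were chosen with earlier results of these data known. Replicate numbers did not pair tumours: 4 of 16 same-number pairs had r over 0.1. No batch is named in the labels.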

Additional observations from a re-analysis of the deposited data

Results flagged for a closer look

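Sox9 in het 4, the tumour of the small intestine that entered no comparison, was at 239.9 CPM, above the wt range of 129.7 to 232 CPM. This single tumour has no counterpart of the same labelled site, and the difference was not tested. In 30 groups of 5 or 6 tumours (10 genes in hom, het and wt), no tumour stood far enough from its group to pass Dixon's 95% criterion.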

How the results depend on the processing

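Members past an adjusted p of 0.05 numbered 0 in each of the 3 comparisons under every alternative run. Of all tested genes, 22 were past it in hom against wt with DESeq2, and 1 or 2 under the other alternatives. At an unadjusted p under 0.05 in hom against wt, 1 member (beside 16% of all tested genes) became 3 with limma-voom (15.7%), 3 without wt 1 and wt 2 (24.6%), 3 with the replicate block (13.3%), 2 with library totals only (17.1%), 2 without a low count filter (12.5%) and 2 with het 4 added (15.3%), and 0 to 3 when each tumour was left out (9.4% to 20.4%). In hom against het 0 (beside 2%) became 0 to 1 when each tumour was left out (1.02% to 4.22%). Mouse numbers were only shared numbers (1 of 17 tumours correlated best with its own), so the paired fit is given here alone. The pairs correlated over 17 tumours numbered 9, and 5 without wt 1, wt 2 and hom 3.

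Log2 fold changes near 0 changed sign, none past the threshold, and the cause was not tested. For Lgr5 in hom against wt the values were 0.013 (DESeq2), 0.013 (RLE factors), 0.007 (Rn45s taken out), 0.002 (het 4 added), 0.095 (library totals), 0.11 (limma-voom), 0.010 (no filter), 0.031 (only the compared genotypes) and 0.062 (replicate block). For Lgr5 in het against wt they were 0.089 (library totals), 0.091 (limma-voom), 0.007 (only the compared genotypes) and 0.018 (replicate block). For Smoc2 in het against wt they were 0.001 (DESeq2), 0.001 (RLE), 0.002 (Rn45s), 0.086 (library totals), 0.015 (limma-voom), 0.011 (no filter), 0.011 (only the compared genotypes) and 0.024 (replicate block). For Tnfrsf19 in het against wt they were 0.001 (DESeq2), 0.001 (RLE), 0.13 (library totals), 0.007 (no filter) and 0.016 (only the compared genotypes). Ascl2 in het against wt was 0.086 with library totals and 0.044 with the replicate block, and Prom1 0.067 with library totals and 0.012 with het 4 added. Without wt 1 and wt 2, Tnfrsf19 in hom against wt was -0.12, and in het against wt Rnf43 was -0.013 and Lrig1 -0.038.

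Leaving out each tumour in turn gave, in hom against wt, -0.16 to 0.26 for Lgr5 and -0.033 to 0.19 for Tnfrsf19. In het against wt it gave -0.17 to 0.26 for Lgr5, -0.19 to 0.20 for Smoc2, -0.11 to 0.12 for Tnfrsf19, -0.25 to 0.16 for Ascl2, -0.15 to 0.071 for Prom1, -0.14 to 1.13 for Olfm4 and -0.008 to 0.26 for Lrig1. In hom against het it gave -0.073 to 0.14 for Lgr5, -0.011 to 0.92 for Olfm4 and -0.052 to 0.16 for Tnfrsf19. The counts limit little here, since the lowest of any member was 103 reads, and the spread between 5 or 6 tumours sets the intervals.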
